A study of Mus musculus with 2 samples.

Results

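Amino acid transporter genes are described here as the genes whose symbol starts with Slc1a, Slc3a, Slc6a, Slc7a, Slc36a, Slc38a or Slc43a and ends in a number. The rule found 39 genes among the 15113 listed in at least 1 library, with 0 RPKM where a library did not list the gene. The name holds for most members. Of the Slc6a members, Slc6a6 carries taurine, Slc6a8 creatine and Slc6a2 noradrenaline, Slc43a3 carries purine nucleobases, and Slc7a4 has no amino acid transport shown.

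RNA was sequenced from sorted mouse lung cells, with 1 library from tumour-bearing mice and 1 from control mice. The tumour-bearing group was a spontaneous lung metastasis model, in which 1000000 LLC cells carrying luciferase were injected under the skin of the back. LLC, or Lewis lung carcinoma, is a transplantable tumour line from this mouse strain. The control was wild type mice that carried no tumour, and both groups were C57BL/6 animals aged 6 to 8 weeks. Digested lung was sorted for cells without CD45, the leukocyte surface protein made from Ptprc, that were positive for Sftpc, a surfactant protein of alveolar type 2 cells. How many mice went into each library is not known from the labels. With 1 library per group there is no replicate check and no test, and every difference below is one between 2 libraries. In such bulk samples, fewer cells of a type and less RNA per cell cannot be told apart.

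Amino acids cross membranes on carriers that differ in what they carry and what drives them. Sodium-coupled carriers of the SLC1, SLC6 and SLC38 families load the cell, and exchangers of the SLC7 family trade one amino acid for another. Several SLC7 exchangers are light chains that reach the cell surface only when joined to a heavy chain, Slc3a2 (CD98) or Slc3a1. SLC36 carriers use protons, and some SLC36 and SLC38 carriers sit on the lysosome, where amino acid supply is read out to the growth kinase mTORC1. In lung epithelium such carriers supply protein, surfactant and glutathione synthesis and clear amino acids from the airspace.

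The RPKM values (reads per kilobase of gene per 1000000 reads) implied totals of 5387114 reads in the tumour-bearing library and 5335352 reads in the control library, with 14283 genes listed in the tumour-bearing and 13932 in the control library. The alveolar type 2 markers summed to 89083 RPKM in the tumour-bearing library and 127766 RPKM in the control library. Most of this was Sftpc, at 54968 RPKM in the tumour-bearing and 94902 RPKM in the control library. Of these 11 markers, 9 lay within 2-fold, 1 was higher and 1 lower. Ptprc was at 0.0667 RPKM in the tumour-bearing library and 0.404 RPKM in the control library. Both genes of the sort thus followed their labels, with Sftpc high and Ptprc low. The libraries differed in markers of other cells. Of 8 fibroblast markers, 7 were at least 2-fold higher in the tumour-bearing library, where the list summed to 424 RPKM, against 25 RPKM in the control library, and Lum and Tcf21 were at 0 in the control library. Of 9 endothelial markers, 7 were at least 2-fold higher, with sums of 119 RPKM in the tumour-bearing and 32.6 RPKM in the control library and none at 0. Of 8 alveolar type 1 markers, 5 were at least 2-fold higher, with sums of 2752 and 1723 RPKM in the tumour-bearing and the control library. Of 7 macrophage and monocyte markers with a value, 3 were at least 2-fold higher and 1 lower, C1qb and C1qc were at 0 in the control library and Chi3l3 in the tumour-bearing library. This list summed to 11487 RPKM in the tumour-bearing and 21580 RPKM in the control library, most of it Lyz2, which type 2 cells also express. In the tumour-bearing library, pan-leukocyte markers summed to 3.55 RPKM, neutrophil markers to 3.45, T, NK and B cell markers to 0.839, club cell markers to 36442 and ciliated cell markers to 358 RPKM. In the control library these sums were 5.14, 4.09, 0.884, 32324 and 481 RPKM. The club cell sum was mostly Scgb1a1, at 35116 RPKM in the tumour-bearing and 30142 RPKM in the control library. Of 6 club cell markers, 1 was at least 2-fold higher and 1 lower, and 4 had a log2 ratio below 0. All 5 ciliated cell markers lay within 2-fold. The part of these cells in the transporter values was not tested.

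The transporter genes were not at one level, and a few carried most of the RPKM. All members summed to 673 RPKM in the tumour-bearing library and 562 RPKM in the control library. In the tumour-bearing library 11 members were at 20 RPKM or more, 5 from 5 to under 20, 12 from 1 to under 5, 8 above 0 and under 1, and 3 at 0. In the control library these numbers were 8, 8, 10, 11 and 2. Slc1a5, Slc3a2, Slc38a2, Slc38a4 and Slc6a6, the 5 most abundant in the tumour-bearing library, made up 59.3% of the members' sum there and 57.6% in the control library. Of the 39 members, 34 had reads in both libraries, 2 in the tumour-bearing library alone and 3 in the control library alone.

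**Figure D1:**
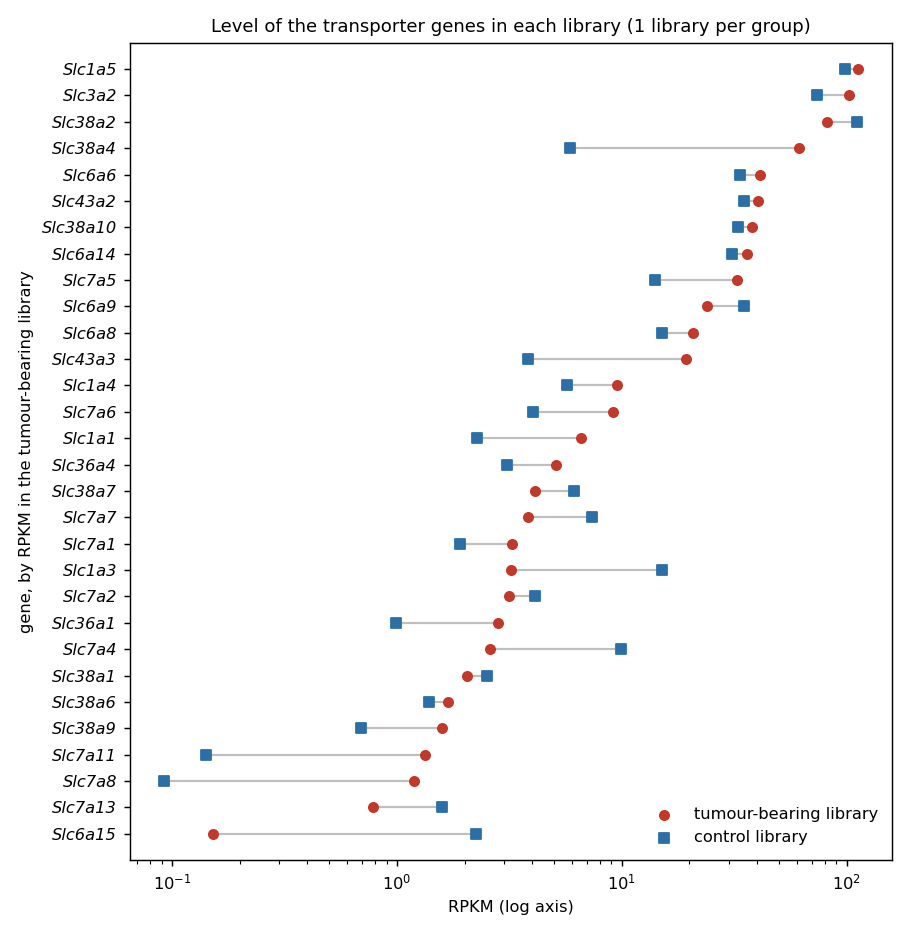
RPKM (log axis) of the 30 members that reached 1 RPKM in either library, with 1 point per library, ordered by the level in the tumour-bearing library. Most abundant genes lie close together in both libraries, while Slc38a4 is at 61.4 RPKM in the tumour-bearing and 5.86 RPKM in the control library.

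Promoter stretches of 4 members are shown. Slc38a4 was far higher in the tumour-bearing library. The cystine carrier gene Slc7a11 was higher too, at low levels of 1.33 RPKM in the tumour-bearing and 0.142 RPKM in the control library. The lysosomal carrier genes Slc36a1 and Slc38a7 differed in opposite directions. Each is the stretch of 250 bases before a RefSeq start on GRCm38.p6, the assembly that mm10 denotes. Capitals mark the core of the element bound by ATF4 and C/EBP factors under amino acid shortage, TGATGNAA, or the E-box CACGTG, which is bound among others by the lysosomal regulator TFEB and by Myc. Both strands were searched, and CACGTG reads the same on both.
Slc38a4, chr15:97055957-97056206, minus strand: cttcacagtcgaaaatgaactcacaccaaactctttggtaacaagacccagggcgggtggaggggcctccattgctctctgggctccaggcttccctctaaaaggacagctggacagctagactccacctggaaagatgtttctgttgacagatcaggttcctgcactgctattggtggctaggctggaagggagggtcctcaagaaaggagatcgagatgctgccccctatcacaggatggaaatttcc
Slc7a11, chr3:50443614-50443863, minus strand: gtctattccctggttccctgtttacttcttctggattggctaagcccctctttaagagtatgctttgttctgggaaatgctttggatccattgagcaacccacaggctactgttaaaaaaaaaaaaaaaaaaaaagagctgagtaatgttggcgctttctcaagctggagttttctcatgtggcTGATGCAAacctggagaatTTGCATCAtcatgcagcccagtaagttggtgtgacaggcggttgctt
Slc36a1, chr11:55204090-55204339, plus strand: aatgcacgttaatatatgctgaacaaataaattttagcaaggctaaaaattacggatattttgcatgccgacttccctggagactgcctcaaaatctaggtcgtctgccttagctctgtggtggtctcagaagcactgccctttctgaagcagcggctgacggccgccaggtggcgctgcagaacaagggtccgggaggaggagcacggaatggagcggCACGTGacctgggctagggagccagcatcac
Slc38a7, chr8:95853492-95853741, minus strand: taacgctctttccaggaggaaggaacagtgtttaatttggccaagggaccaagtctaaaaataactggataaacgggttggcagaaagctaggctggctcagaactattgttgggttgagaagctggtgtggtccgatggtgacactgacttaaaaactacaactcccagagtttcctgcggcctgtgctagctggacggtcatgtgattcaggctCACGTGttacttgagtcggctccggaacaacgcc
Slc7a11 held TGATGNAA at 66 to 59 bases before the start and, on the other strand, at 47 to 40 bases before it. Promoter windows from RefSeq were at hand for 25 members, 37 windows in all. TGATGNAA was found in 3 of these, of Slc7a11 and Slc7a7, or 8.11%, and in 3.45% of all 32851 promoter windows. Slc7a11 was higher in the tumour-bearing library and Slc7a7 lower. The E-box was found in 3 of the 37, of Slc36a1, Slc38a7 and Slc7a14, or 8.11%, and in 6.02% of all windows. No match overlapped one of the other motif. These matches describe letters in a window and not binding. The sequences are credited to RefSeq.

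The comparison asks how sorted lung epithelial cells of tumour-bearing mice differ from those of control mice. On the scale log2((tumour-bearing RPKM + 1)/(control RPKM + 1)), 30 members reached 1 RPKM in at least 1 library. Of these, 7 were at least 2-fold higher in the tumour-bearing library, 23.3%, against 9.38% of all 12288 genes tested. Another 3 were at least 2-fold lower, 10% of the 30, against 6.53% of all genes. The remaining 20 lay within 2-fold, and 15.9% of all genes were past 2-fold in either direction. The higher genes were Slc38a4, Slc43a3, Slc1a1, Slc7a5, Slc7a11, Slc7a6 and Slc7a8, and the lower genes Slc1a3, Slc7a4 and Slc6a15. The median log2 ratio was 0.26 for the members tested and 0.06 for all genes tested. Under upper-quartile scaling, which shifts all ratios by -0.11, and likewise with Sftpc left out of the sums or with ratios centred on the median of all genes, 4 members were higher and 3 lower, since Slc7a6, Slc7a8 and Slc7a11 then lay just under 2-fold. Of all genes, 7.73% were then higher and 7.64% lower under upper-quartile scaling, so the excess of higher over lower genes in the background depends on the scaling as well. With Sftpc left out, 8.47% of all genes were higher and 7.07% lower, and after centring 8.35% and 7.19%. With a pseudocount of 5 RPKM, 2 members were higher and 1 lower, beside 3.01% and 1.55% of all genes. Of the 30 genes, 6 reached 1 RPKM in 1 library only, so their difference came with their place in the list. Among them were the called genes Slc7a8, Slc7a11 and Slc6a15. With a filter at 5 RPKM, 5 of 20 members were higher and 2 lower, beside 7.95% and 4.85% of all genes.

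Folds below are direct ratios of RPKM. The range after a fold is the exact (Clopper-Pearson) 95% interval of the ratio of whole reads, which were recovered from the RPKM values. These intervals cover counting error only and say nothing of the spread between mice. By them, 19 of the 30 members were higher in the tumour-bearing library, beside 33.1% of 12245 tested genes with recovered reads, and 8 were lower, beside 26.4%. The other 3 intervals, of Slc38a1, Slc38a6 and Slc7a13, included no difference. Under upper-quartile scaling 14 members were higher, beside 27.5% of genes, and 8 lower, beside 31.9%, and the intervals of Slc1a5, Slc43a2, Slc38a10, Slc6a14 and Slc36a4 then included no difference too. The small folds of these 5 genes below thus depend on the scaling. Whether an interval leaves out no difference also depends on the number of reads, and members were not matched to genes of like reads.

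**Figure D2:**
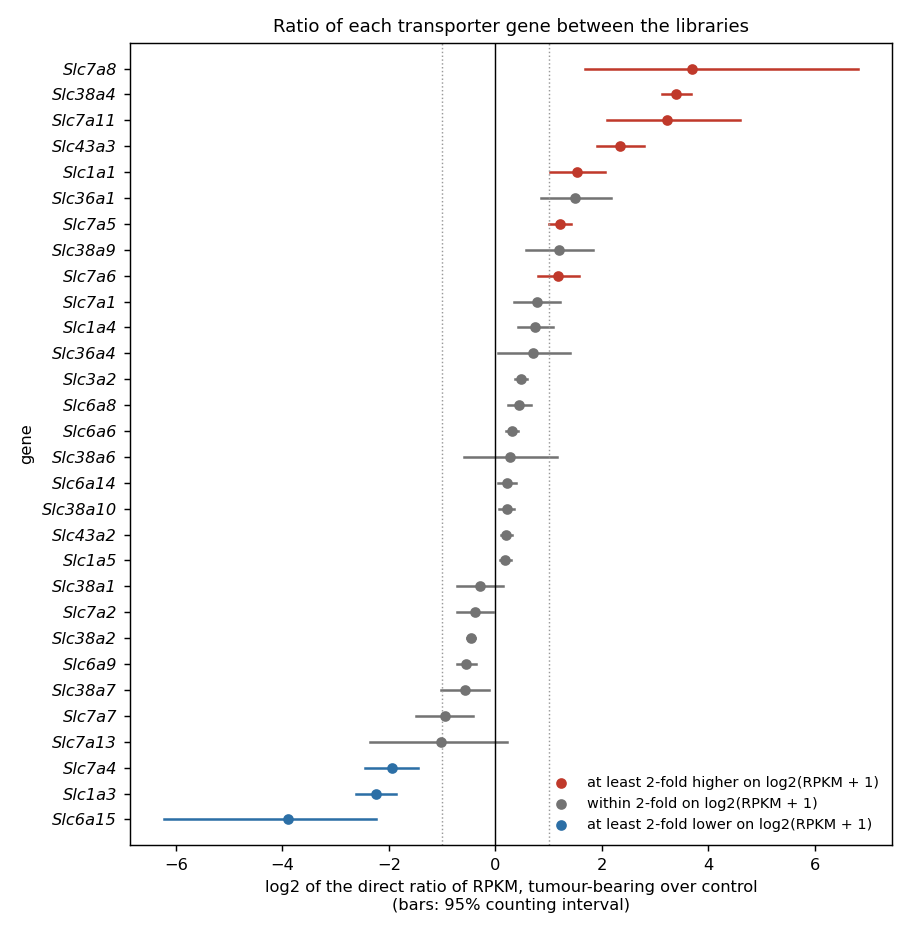
Log2 of the direct ratio of RPKM, tumour-bearing over control, for the 30 members that reached 1 RPKM in either library, with bars for the 95% counting interval and dotted lines at 2-fold. The 7 red genes and 3 blue genes passed 2-fold on log2(RPKM + 1), and wide bars such as that of Slc7a8 rest on few reads.

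The sodium-coupled neutral amino acid carriers of the SLC38 family held the largest difference among the members at 5 RPKM or more. Slc38a4 (GeneID 69354, chr15:96994816-97055956), a system A carrier of small neutral amino acids best known from liver and placenta, was at 61.4 RPKM in the tumour-bearing library and 5.86 RPKM in the control library. This was 10.5-fold higher (8.70 to 12.7), from 1301 reads in the tumour-bearing and 123 reads in the control library. It stood at place 4 among the members in the tumour-bearing library and at place 15 in the control library. By log2 ratio it was at place 50 from the top of 8645 genes at 5 RPKM or more.

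Slc38a4 lies in a cluster on chromosome 15 with 2 family members that did not share its direction. Slc38a2 (GeneID 67760, chr15:96687392-96699728), the system A carrier that cells induce when amino acids are short, was at 81.4 RPKM in the tumour-bearing library and 112 RPKM in the control library, 1.37-fold lower (1.30 to 1.45). Slc38a1 (GeneID 105727, chr15:96571418-96643438), a glutamine carrier of the same system, was at 2.06 RPKM in the tumour-bearing and 2.51 RPKM in the control library, with an interval of the fold lower from 0.909 to 1.64. The 3 clustered genes together summed to 145 RPKM in the tumour-bearing library and 120 RPKM in the control library. Slc38a4 thus made up a large part of the cluster's RPKM in the tumour-bearing library and a small part in the control library. Slc38a10 (GeneID 72055), a less studied member, was at 38 and 32.8 RPKM in the tumour-bearing and the control library, 1.16-fold higher (1.05 to 1.27). Slc38a6 was at 1.69 RPKM in the tumour-bearing and 1.39 RPKM in the control library. Slc38a3, a system N glutamine carrier, had 2 reads in the tumour-bearing library and 0 in the control library.

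System L, which moves large neutral amino acids such as leucine, was higher through its light chain more than its heavy chain. Slc7a5 (GeneID 20539, chr8:121881146-121907686), the light chain LAT1, was at 32.7 RPKM in the tumour-bearing library and 14.1 RPKM in the control library, 2.32-fold higher (2 to 2.69). Slc3a2 (GeneID 17254, chr19:8706882-8723369), the heavy chain CD98, was at 103 RPKM in the tumour-bearing and 73.9 RPKM in the control library, 1.39-fold higher (1.29 to 1.5). Slc43a2 (GeneID 215113), a carrier of the same amino acids by facilitated diffusion that needs no heavy chain, was at 40.3 RPKM in the tumour-bearing and 35 RPKM in the control library, 1.15-fold higher (1.07 to 1.24). Slc43a2 stood above Slc7a5 in both libraries, by 40.3 against 32.7 RPKM in the tumour-bearing library and 35 against 14.1 RPKM in the control library. Slc7a8, the light chain LAT2, had 26 reads in the tumour-bearing and 2 in the control library, 12.9-fold higher with a wide interval (3.22 to 112), at a level of 1.19 RPKM in the tumour-bearing and 0.0922 RPKM in the control library.

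Other light chains of Slc3a2 differed in both directions. Slc7a6 (GeneID 330836, chr8:106168219-106198714), which trades cationic for neutral amino acids, was at 9.11 RPKM in the tumour-bearing and 4.02 RPKM in the control library, 2.27-fold higher (1.73 to 2.98). Its close relative Slc7a7 (GeneID 20540, chr14:54369442-54420068), whose loss in humans causes lysinuric protein intolerance, was at 3.81 RPKM in the tumour-bearing and 7.36 RPKM in the control library, 1.93-fold lower (1.34 to 2.81). The pair thus differed in opposite directions, so that Slc7a6 was the higher of the 2 in the tumour-bearing library and Slc7a7 in the control library. Slc7a7 and Slc7a8 lie near each other on chromosome 14, where Slc7a8 spans chr14:54722215-54781886, and differed in opposite directions too.

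Slc7a11 (GeneID 26570, chr3:50364936-50499087), the light chain xCT that imports cystine in exchange for glutamate, had 66 reads in the tumour-bearing library and 7 in the control library. This was 9.34-fold higher (4.29 to 24.1), at the low levels of 1.33 RPKM in the tumour-bearing and 0.142 RPKM in the control library. Slc7a10, a carrier of small neutral amino acids, had 0 reads in the tumour-bearing and 4 in the control library. Summed over the 6 light chains of Slc3a2 among the members, levels were 48.1 RPKM in the tumour-bearing library and 26.1 RPKM in the control library. Per RPKM of the heavy chain this was 0.468 in the tumour-bearing library and 0.353 in the control library, so the heavy chain stood above the sum of its light chains in both. Slc7a5 alone was 67.9% of the light chain sum in the tumour-bearing library and 54.0% in the control library. The other heavy chain, Slc3a1, had 1 read in the tumour-bearing and 7 in the control library, and Slc7a13, a light chain known from mouse kidney, had 9 and 18 reads in the tumour-bearing and the control library.

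**Figure D3:**
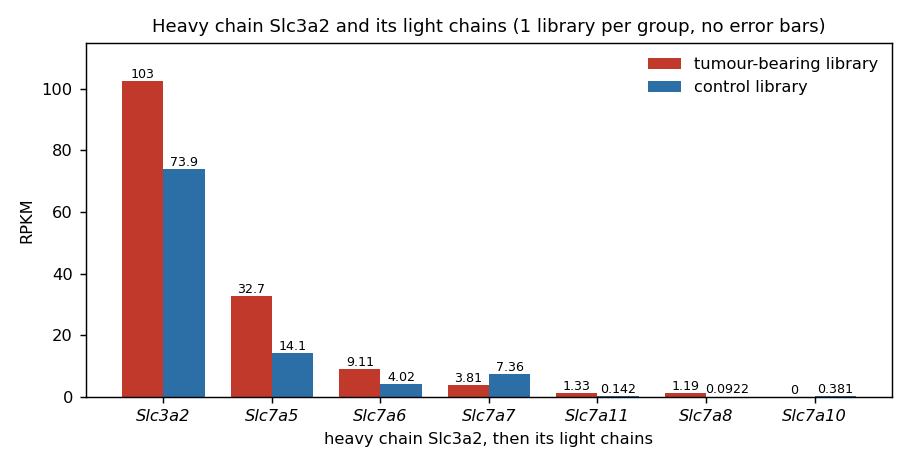
RPKM of the heavy chain Slc3a2 and its 6 light chains among the members, with 1 bar per library. Slc3a2 stands at 103 RPKM in the tumour-bearing and 73.9 RPKM in the control library, above the sum of its light chains in both.

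Among the SLC1 carriers, the glutamine carrier was abundant and close in both libraries, while the glutamate carriers differed in opposite directions. Slc1a5 (GeneID 20514, chr7:16781334-16798274), the sodium-dependent exchanger ASCT2 of glutamine and other neutral amino acids, was at 112 RPKM in the tumour-bearing library and 98.8 RPKM in the control library, 1.13-fold higher (1.06 to 1.22). Slc1a4 (GeneID 55963), its relative for serine, alanine and cysteine, was at 9.55 RPKM in the tumour-bearing and 5.68 RPKM in the control library, 1.68-fold higher (1.33 to 2.13). Slc1a1 (GeneID 20510, chr19:28835135-28913960), a carrier of glutamate and cysteine, was at 6.56 RPKM in the tumour-bearing and 2.27 RPKM in the control library, 2.88-fold higher (2.04 to 4.14). Slc1a3 (GeneID 20512, chr15:8634124-8710807), the glutamate carrier best known from astrocytes, had the opposite direction, at 3.22 RPKM in the tumour-bearing and 15.2 RPKM in the control library. This was 4.72-fold lower (3.65 to 6.16), from 73 reads in the tumour-bearing and 341 reads in the control library. Slc1a2, the main glutamate carrier of the brain, had 0 reads in the tumour-bearing and 26 in the control library. At 0.421 RPKM in the control library it was under the filter and was not called. Set at a floor of 3 reads in the tumour-bearing library it was 8.75-fold lower, without the counting error of the 26 reads. By RPKM, Slc1a1 was thus above Slc1a3 in the tumour-bearing library and below it in the control library.

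The cationic branch of SLC7 is named for carriers that bring in arginine and lysine. Its 3 proven carriers, Slc7a1, Slc7a2 and Slc7a3, summed to 6.40 RPKM in the tumour-bearing library and 6.10 RPKM in the control library, and were thus close. Slc7a4 (GeneID 224022, chr16:17572018-17576890), the member of this branch with no transport shown, differed most, at 2.59 RPKM in the tumour-bearing and 9.92 RPKM in the control library, 3.84-fold lower (2.75 to 5.45). Slc7a1, the widely expressed arginine carrier CAT1, was at 3.25 RPKM in the tumour-bearing and 1.90 RPKM in the control library, 1.71-fold higher (1.27 to 2.31). Slc7a2, the carrier CAT2 linked to nitric oxide and arginase activity, was at 3.15 RPKM in the tumour-bearing and 4.12 RPKM in the control library, 1.31-fold lower (1.04 to 1.66). Slc7a3 had 0 reads in the tumour-bearing and 1 in the control library. Slc7a1 and Slc7a2 thus lay within 2-fold, in opposite directions.

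The lysosomal carriers were low in both libraries. Slc36a1 (GeneID 215335, chr11:55204322-55236330), a proton-coupled carrier of small amino acids on the lysosome, was at 2.81 RPKM in the tumour-bearing and 0.994 RPKM in the control library, 2.83-fold higher (1.82 to 4.52). Slc38a9 (GeneID 268706, chr13:112656189-112738752), the lysosomal arginine sensor of mTORC1, was at 1.58 RPKM in the tumour-bearing and 0.694 RPKM in the control library, 2.28-fold higher (1.5 to 3.54). Both stayed within 2-fold on log2(RPKM + 1), which understates the ratio of low genes, and passed it with a pseudocount of 0.1 RPKM. Slc36a4, a carrier of proline and tryptophan, was at 5.08 RPKM in the tumour-bearing and 3.10 RPKM in the control library, 1.64-fold higher (1.04 to 2.63). Slc38a7 (GeneID 234595, chr8:95835920-95853577), which exports glutamine from the lysosome, was at 4.13 RPKM in the tumour-bearing and 6.11 RPKM in the control library, 1.48-fold lower (1.09 to 2.02). Slc36a1 and Slc38a7, which both hold CACGTG in the stretches printed above, therefore differed in opposite directions. Slc7a14, another lysosomal member, had 10 reads in the tumour-bearing and 9 in the control library.

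SLC6 carriers were mostly close in the 2 libraries. Slc6a14 (GeneID 56774, chrX:21714900-21742358), the broad carrier of neutral and cationic amino acids at the surface of airway and alveolar epithelium, was at 36 RPKM in the tumour-bearing and 30.9 RPKM in the control library, 1.17-fold higher (1.04 to 1.31). Slc6a9 (GeneID 14664), the glycine carrier, was at 23.9 RPKM in the tumour-bearing and 34.9 RPKM in the control library, 1.46-fold lower (1.29 to 1.66). The taurine carrier gene Slc6a6 (GeneID 21366) was at 41.4 RPKM in the tumour-bearing and 33.4 RPKM in the control library, 1.24-fold higher (1.14 to 1.34). The creatine carrier gene Slc6a8 (GeneID 102857) was at 20.7 RPKM in the tumour-bearing and 15.1 RPKM in the control library, 1.37-fold higher (1.18 to 1.58). Only Slc6a15 passed 2-fold among the tested Slc6a members. This carrier of branched-chain amino acids and proline, best known from neurons, had 3 reads in the tumour-bearing and 44 in the control library, 14.8-fold lower with a wide interval (4.75 to 74.6), at 0.152 RPKM in the tumour-bearing and 2.25 RPKM in the control library. Slc6a2, Slc6a18 and Slc6a17 were under 1 RPKM in both libraries, with 12, 5 and 3 reads in the tumour-bearing library and 8, 4 and 0 in the control library.

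Slc43a3 (GeneID 58207, chr2:84936545-84958509), the purine nucleobase carrier, was at 19.3 RPKM in the tumour-bearing library and 3.82 RPKM in the control library, 5.05-fold higher (3.75 to 6.91). With Slc38a4 it was 1 of the 2 members at least 4-fold higher on log2(RPKM + 1). Of the 9 endothelial markers, 7 were at least 2-fold higher too, among them Pecam1 and Eng, at 17.7 and 18.3 RPKM in the tumour-bearing and 3.01 and 2.78 RPKM in the control library. The folds of these 7 ran from 2.76 for Cdh5 to 26.7 for Vwf. The other 2, named after their values were seen, lay the other way within 2-fold, Kdr at 3.40 RPKM in the tumour-bearing and 6.41 RPKM in the control library, and Tek at 3.15 and 3.71 RPKM in the tumour-bearing and the control library. The part of endothelial cells in the value of Slc43a3 was not tested. The fibroblast markers Col1a2 and Col1a1 were at 41.8 and 38.5 RPKM in the tumour-bearing and 1.06 and 1.27 RPKM in the control library. Of 8 alveolar type 1 markers, 5 were at least 2-fold higher as well. Most endothelial, fibroblast and type 1 markers were thus higher along with Slc43a3, and so along with Slc38a4 too. The part of these cells in the value of Slc38a4 was not tested either.

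Amino acid carriers outside the symbol rule were divided as well, with 2 of 11 tested genes at least 2-fold higher and 1 lower. The peptide carrier gene Slc15a2 (GeneID 57738), which takes di- and tripeptides from the airspace, was at 59.4 RPKM in the tumour-bearing and 24.5 RPKM in the control library, 2.43-fold higher (2.19 to 2.69). Its relative Slc15a1, the intestinal peptide carrier, was at 1.13 RPKM in the tumour-bearing and 6.60 RPKM in the control library, 5.85-fold lower (3.57 to 10.1). Slc25a22, a mitochondrial glutamate carrier, was named after its values were seen, since it was the remaining gene past 2-fold, at 4.96 RPKM in the tumour-bearing and 1.80 RPKM in the control library. The median log2 ratio of this list was 0.02, and -0.07 under upper-quartile scaling, which lowers the ratios of all genes as well.

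Genes of related pathways are set beside all tested genes, of which 15.9% were past 2-fold. Of 17 tested genes of the ATF4 amino acid response, through which cells answer amino acid shortage, 2 were at least 2-fold higher, 1 lower and 14 within 2-fold, with a median log2 ratio of 0.39. Atf4 itself, outside the naming rule and given because the list bears its name, was at 136 RPKM in the tumour-bearing and 243 RPKM in the control library, 1.79-fold lower (1.67 to 1.92). Ddit3, a stress transcription factor gene downstream of ATF4, was 4.70-fold lower (2.87 to 8.04), while Eif4ebp1, a translation inhibitor gene, was 5.31-fold higher (3.35 to 8.80). Psat1, of serine synthesis, was 2.72-fold higher (1.80 to 4.22), and Sesn2, a leucine sensor gene, was 2.03-fold higher (1.69 to 2.44) but just within 2-fold on log2(RPKM + 1). Of the 17 genes, 12 had a log2 ratio above 0 and 5 below, beside 6612 and 5676 of all genes tested, whose median was 0.06. Most of the list thus lay above 0, with Atf4 and Ddit3 among the genes below. ATF4 protein was not measured.

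Of 11 tested genes of glutamine, glutamate and proline enzymes, 1 was at least 2-fold higher and 2 lower. Glul, glutamine synthetase, was at 489 RPKM in the tumour-bearing and 178 RPKM in the control library, 2.74-fold higher (2.63 to 2.87). Gpt, an alanine aminotransferase gene, was at 20.3 RPKM in the tumour-bearing and 60.4 RPKM in the control library, 2.98-fold lower (2.53 to 3.52). The other lower gene was Gls2, a glutaminase gene at 0 in the tumour-bearing and 1.98 RPKM in the control library, named after its values were seen. The median log2 ratio of these enzymes was 0.20, and Glul alone was 489 of their 649 RPKM in the tumour-bearing library and 178 of 353 RPKM in the control library.

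Of 12 arginine, polyamine and urea enzyme genes tested, 2 were at least 2-fold higher and 1 lower. Arg2, mitochondrial arginase, was at 59.9 RPKM in the tumour-bearing and 26.5 RPKM in the control library, 2.26-fold higher (1.91 to 2.69). The other higher gene, named after its values were seen, was Nos3, the endothelial nitric oxide synthase gene, at 1.48 RPKM in the tumour-bearing and 0 in the control library, from 33 and 0 reads. With the control library set at the floor of 3 reads, it was 10.9-fold higher, without the counting error of the 33 reads. Most endothelial markers were higher in the same library. Azin1, an activator of polyamine synthesis, was at 32.5 RPKM in the tumour-bearing and 71.6 RPKM in the control library, 2.20-fold lower (2.03 to 2.39). In the glutathione list 2 of 7 tested genes were at least 2-fold lower and none higher, yet its summed level was 454 RPKM in the tumour-bearing and 319 RPKM in the control library. That sum was carried by Gclc, the rate-limiting enzyme of glutathione synthesis, at 374 RPKM in the tumour-bearing and 199 RPKM in the control library, 1.88-fold higher (1.81 to 1.96). Gclm, of the same list, was at 20.2 RPKM in the tumour-bearing and 10.2 RPKM in the control library, 1.97-fold higher (1.57 to 2.49). Ggt5, which splits extracellular glutathione, was 4.19-fold lower (3.27 to 5.42), and Mat2a, which makes S-adenosylmethionine, was 2.28-fold lower (2.04 to 2.56). The median log2 ratios of the arginine and the glutathione lists were -0.15 and -0.30, and that of the glutathione list was 0.06 without the filter on low values.

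Genes of tRNA charging, branched-chain amino acid catabolism and amino acid sensing had few members past 2-fold. Of 18 cytosolic aminoacyl-tRNA synthetase genes, 17 lay within 2-fold, and Wars, which charges tRNA with tryptophan, was 2.09-fold higher (1.81 to 2.43). All 11 tested genes of branched-chain amino acid catabolism lay within 2-fold. Of 22 genes of mTORC1 amino acid sensing, 20 lay within 2-fold, with Lamtor3, a lysosomal scaffold gene, 2.15-fold higher (1.65 to 2.81) and Rragb, named after its values were seen, at 0 in the tumour-bearing and 1.46 RPKM in the control library. The median log2 ratios of these 3 lists were 0.05, 0.04 and 0.07, beside 0.06 for all genes tested. Each was below 0 under upper-quartile scaling, which shifts the ratios of all genes by -0.11 and so lowers the median of all genes as well. After centring on the median of all genes, Wars and Lamtor3 were within 2-fold too.

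**Figure D4:**
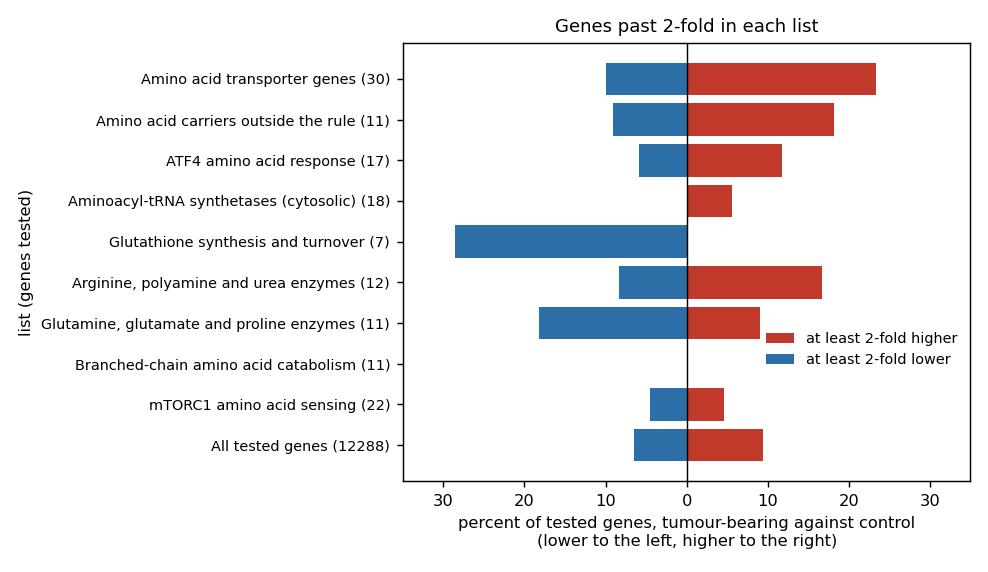
Percent of tested genes at least 2-fold higher (right) or lower (left) in the tumour-bearing library than in the control library on log2(RPKM + 1), for the transporter genes, the related lists and all tested genes, with the number tested in brackets. The transporter genes stand at 23.3% higher and 10% lower, and all genes at 9.38% and 6.53%.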

How the data were processed

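Each group held 1 library, and the authors deposited 1 table of RPKM per gene for each, per the file headers. Trimmomatic and mm10 are named, without versions, per the submitters' processing notes. The aligner, counting tool, annotation and strand setting are not stated in the sources at hand. RPKM was used as deposited, with 1 RPKM added on the log2 scale and genes under 1 RPKM in both libraries left out of calls. RPKM divides by the library total, and Sftpc made up 11.2% of the RPKM sum in the tumour-bearing and 18.6% in the control library.

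Whole reads were recovered from the RPKM steps. With the last 150 rows of each table taken as 1 read each, library totals were sought at which gene lengths came out whole, giving 5387114 reads in the tumour-bearing and 5335352 reads in the control library. At these totals 99.9% of genes had a whole length. Multiples of a length were settled from the descending order of reads in the tables, and rows among the first 30 of a table were left out. All 39 members had reads, and 10 of them needed a multiple. For 4 members the implied length was that of one of their GENCODE M21 transcripts. The totals are estimates of this work. At these depths 1 read in a gene of 1 kb is 0.186 RPKM in the tumour-bearing and 0.187 RPKM in the control library. PCR reads without molecular identifiers are not independent molecules, so intervals and the floor of 3 reads cover counting error only.

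Members and lists were chosen with earlier results of these data known. Every member could be named, and of each other list up to 4 genes with the highest absolute log2 ratio at 5 RPKM or more. Exceptions are stated. Coordinates, matched by GeneID for all 39 members, and promoters, matched for 25 members, are from RefSeq on GRCm38.p6. Reads shared between overlapping or antisense genes could not be told apart. Alternatives were 3 scalings, centring, other pseudocounts, filters and size thresholds, and recovered reads. Read recovery and the 2-fold rule were run on simulated tables with known reads. There the totals were sought in a separate step, and reads were recovered at the true totals, not at the ones found. Python 3.11.15, numpy 2.4.6, pandas 2.3.3 and scipy 1.17.1 were used.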

Additional observations from a re-analysis of the deposited data

How the results depend on the processing

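A filter or a pseudocount cannot turn the sign of a ratio. The 3 scalings and centring shifted all ratios down, by no more than -0.11, and the smallest ratio above 0 was 0.17, of Slc38a6. No member could thus change sign under them. That each of the 30 transporter genes tested kept its sign is therefore no check of the ratios. The median of the members lay between 0.15 and 0.29 over all settings. Counts moved more. Against 7 members at least 2-fold higher and 3 lower, there were 4 higher under upper-quartile scaling, with Sftpc left out of the sums and after centring on the median, 2 higher and 1 lower with a pseudocount of 5 RPKM, and 2 higher and 0 lower at a 4-fold threshold. On recovered reads 6 members were higher and 3 lower with counting intervals wholly past 2-fold. The share of all genes with such intervals was not computed. Of all genes tested, against 1153 higher and 802 lower, there were 950 and 939 under upper-quartile scaling, 687 and 419 with a filter at 5 RPKM, 370 and 190 with a pseudocount of 5 RPKM, 2383 and 1978 at 1.5-fold and 204 and 75 at 4-fold, and 1247 lower with a pseudocount of 0.1 RPKM. The cause was not tested. Counting intervals above 1 numbered 19 members, against 17 with Sftpc left out and 14 under upper-quartile scaling, a comparison chosen after seeing the data. Of all genes with recovered reads, 33.1%, 29.8% and 27.5% had such intervals, in the same order. No paired analysis was possible because each group holds 1 library. Slc7a8, Slc7a11 and Slc6a15 rest on 2, 7 and 3 reads in their lower library, which limits the precision of their folds.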
